A study of Mus musculus with 6 samples.

Results

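The 9 genes of the IL-6 and oncostatin M family described here were chosen by symbol, out of 30406 genes listed for all libraries. They were the cytokine genes Il6, Il11, Lif and Osm, the receptor genes Il6ra, Il6st, Osmr and Lifr, and the feedback inhibitor gene Socs3. All 9 were listed for all 6 libraries of a single-nucleus RNA-seq series from mouse tibial periosteum before and after fracture. In nuclei of uninjured tibia (2 libraries), of periosteum with hematoma at 3 days after fracture (2 libraries), and at 5 and 7 days (1 library each), the level of each gene was followed across classes of nuclei. The mice were C57BL6 in all groups and 12 weeks old, with males and females mixed. Fractured mice had surgery under ketamine and medetomidine with buprenorphine for pain relief, so that injury, anesthesia and analgesia cannot be told apart here. Each uninjured library pooled 4 mice and each fracture library pooled 4 to 9, so a library and not a mouse was the replicate.

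Cytokines of this family signal through a shared receptor chain, gp130, encoded by Il6st. IL-6 and IL-11 first bind their own receptor chains, of which Il6ra encodes that for IL-6, whereas LIF uses Lifr and oncostatin M uses Osmr, and in part Lifr, together with gp130. Receptor engagement activates JAK kinases and STAT3, which induces Socs3, an inhibitor that shuts the same pathway off. In bone, these cytokines are known for acting on osteoblasts and osteoclasts, and oncostatin M is known as a product of macrophages and neutrophils.

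On GRCm38, Il6 lies on chromosome 5 from 30013114 to 30019981 and Il11 on chromosome 7 from 4772373 to 4782859. Osm (4236420 to 4241026) and Lif (4257557 to 4272514) are neighbours on chromosome 11, 16530 bases apart with 0 genes between them, and Socs3 is on the same chromosome from 117966079 to 117970047. Osmr (6813577 to 6874969) and Lifr (7090614 to 7197489) lie on chromosome 15, 215644 bases apart with 0 protein-coding genes between them. Il6ra is on chromosome 3 from 89864059 to 89913196 and Il6st on chromosome 13 from 112464070 to 112510086. Among the 9, Il6ra was the member that overlapped another annotated gene, the antisense gene Gm42809, over 281 bases. Exons made up 10.1% of the Lifr gene and 72.8% of the Socs3 gene, so levels are compared between classes and libraries of the same gene and never between genes.

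The bases just before the RefSeq start of 3 members whose counts were higher at day 3 than in uninjured tissue are shown because each held a motif of a transcription factor family that acts in this pathway or in injury responses. A RefSeq start is not always the outer bound of the gene given above. The Socs3 and Osmr bases shown lie inside their genes, which reach 117970047 and 6874969 and are on the minus strand. The last Lif bases also lie inside its gene. Both motifs read the same on either strand. The STAT motif TTCNNNGAA was in 8.30% and the AP-1 motif TGANTCA in 7.81% of 32851 RefSeq promoter windows (GRCm38.p6, 250 bases before to 50 after a start). A match is a description of the letters in a window and not evidence of binding. Capitals mark the motif, which is AP-1 in Il6 and Lif and STAT in Socs3.
Il6 (chr5:30012864-30013113, plus strand): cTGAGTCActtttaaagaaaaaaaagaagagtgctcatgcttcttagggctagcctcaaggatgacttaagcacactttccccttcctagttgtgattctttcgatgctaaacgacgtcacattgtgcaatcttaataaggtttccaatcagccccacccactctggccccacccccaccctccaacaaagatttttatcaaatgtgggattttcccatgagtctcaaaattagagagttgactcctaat
Lif (chr11:4257318-4257567, plus strand): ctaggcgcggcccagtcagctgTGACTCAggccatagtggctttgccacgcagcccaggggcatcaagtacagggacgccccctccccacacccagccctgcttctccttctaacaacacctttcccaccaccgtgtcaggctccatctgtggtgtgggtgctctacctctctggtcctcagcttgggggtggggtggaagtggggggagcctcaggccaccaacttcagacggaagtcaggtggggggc
Socs3 (chr11:117969367-117969616, minus strand): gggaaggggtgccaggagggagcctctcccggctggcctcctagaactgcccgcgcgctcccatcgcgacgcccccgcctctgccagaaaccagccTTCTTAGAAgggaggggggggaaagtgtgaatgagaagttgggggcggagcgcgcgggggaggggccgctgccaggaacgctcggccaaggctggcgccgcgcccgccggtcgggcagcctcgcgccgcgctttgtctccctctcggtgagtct
Osmr held an AP-1 motif that began at position 4 after its RefSeq start, shown in 30 bases across that start.
Osmr (chr15:6874299-6874328, minus strand): ggacacttgccccgtagtTGATTCAtagct
The windows of Il6ra, Il6st and Lifr and the first of 2 windows of Il11 held neither motif, and the second Il11 window held an AP-1 motif. Osm was not matched in the promoter table.

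The 6 libraries held 655 to 4712 barcodes and 1499281 to 29796296 UMIs (unique molecular identifiers, each a counted RNA molecule). The filter left 8073 nuclei, 644 to 2423 per library. Nuclei were clustered and named from marker genes, and each name ends in -like because it rests on markers. Stromal nuclei (2976) joined classes like skeletal stem/progenitor cells and fibroblasts (SSPC/fibroblast-like), injury-induced fibrogenic cells (IIFC-like), osteoblasts, chondrocytes and tendon cells. Immune nuclei (1630) joined macrophage-like, monocyte/antigen-presenting cell-like (monocyte/APC-like) and neutrophil-like nuclei, and endothelial-like nuclei numbered 844. Levels are CPM, the UMIs of a gene scaled to a common total of 1000000 UMIs of the class. Uninjured replicate 1 held 11 immune nuclei with 6667 UMIs in all, so its immune values rest on 0 to 2 UMIs a member. Any 2 libraries shared 0 to 7 barcodes. The count matrix of uninjured replicate 1 was made with Cell Ranger 6.0.0, as were those of days 5 and 7, whereas uninjured replicate 2 and both day 3 libraries were made with 7.1.0. The gene lists differed as well. Both uninjured libraries and day 3 replicate 2 listed 31055 genes, day 3 replicate 1 and day 7 listed 32285, and day 5 listed 32287. The 7.1.0 libraries therefore did not all share a gene list, and levels rest on the 30406 genes listed for all libraries.

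Osm was found almost entirely in immune nuclei, whereas Lif was found mainly in stromal nuclei. For Il6, stromal nuclei held 80 of 145 UMIs (55.2%), against 37.6% of all UMIs. Endothelial-like nuclei held 24 Il6 UMIs (16.6%, against 9.53% of all UMIs). Nuclei like pericytes and smooth muscle cells held 17 (11.7%, against 2.81%). Of 47 Osm UMIs, 44 were in immune nuclei (93.6%, exact 95% binomial interval 82.5% to 98.7%), which held 18.2% of all UMIs. Macrophage-like nuclei held 33, neutrophil-like nuclei 7 and monocyte/APC-like nuclei 4. Endothelial-like nuclei held 0 of 3078411 UMIs, which allows up to 0.975 CPM, and stromal nuclei held 1 in 12151006. Intervals and limits of this kind cover counting error only.

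Within immune nuclei, Osm stood at 0 and 1 UMI in the uninjured libraries, 2 and 31 at day 3 (6.75 and 7.56 CPM), 10 at day 5 (9.60 CPM) and 0 at day 7. The uninjured level of 3.57 CPM came from a single UMI, and the ratio of day 3 to uninjured was 2.10 with an exact 95% interval of 0.352 to 85.5. A difference in Osm level per immune UMI was therefore not detectable at this depth. The number of immune nuclei was 11 and 64 in the uninjured libraries and 152 and 729 at day 3, and fewer nuclei of a type in the tissue and fewer captured nuclei cannot be told apart.

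Il6 was at 0 UMIs in the 1906877 stromal UMIs of both uninjured libraries. At day 3 the stromal nuclei held 4 and 42 Il6 UMIs (9.04 and 20.8 CPM), at day 5 they held 33 (5.42 CPM) and at day 7 they held 1 (0.589 CPM). The groups did not overlap. Taking 3 UMIs over the uninjured group as the limit of a 0 (1.57 CPM), the summed day 3 level (18.7 CPM) was 11.9-fold that limit. This ratio leaves out the counting error of day 3, where replicate 2 held 42 of the 46 UMIs. The edgeR filter removed Il6 from the stromal test. Without that filter, edgeR's quasi-likelihood test called it higher (adjusted p = 0.00307). With uninjured replicate 1 or day 3 replicate 1 left out, Il6 passed the filter. It did so through its day 3 counts alone, so these fits are not separate evidence.

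IIFC-like nuclei carried 3, 19, 23 and 1 of the Il6 UMIs in the day 3, day 5 and day 7 libraries. SSPC/fibroblast-like nuclei carried 1 and 15 at day 3 (9.55 and 35.2 CPM) and 7 at day 5. Tendon-like nuclei of day 3 replicate 2 carried 7, from 2 nuclei. In osteoblast- and chondrocyte-like nuclei the total over all libraries was 2 and 1.

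Endothelial-like nuclei held 0 and 3 Il6 UMIs in the uninjured libraries, 1 and 13 at day 3 (10.8 and 27.4 CPM), 7 at day 5 and 0 at day 7. Both day 3 libraries were above both uninjured libraries, and the ratio of the summed levels was 12.9 with an exact 95% interval of 3.60 to 70.0. By edgeR without the filter, which removed the gene otherwise, the adjusted p was 0.115. Pericyte/smooth muscle cell-like nuclei (pericyte/SMC-like) held 17 Il6 UMIs in 10 of 74 nuclei at day 5 (56.8 CPM, exact 95% Poisson interval 33.1 to 90.9) and 0 in all other libraries. At day 3 these nuclei numbered 4 and 9, so Il6 was not measurable there. In immune nuclei Il6 stood between 0 and 10.1 CPM, on 13 UMIs in all.

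Of 119 Lif UMIs, 104 were stromal (87.4%, exact 95% binomial interval 80.1% to 92.8%), and IIFC-like nuclei alone held 70. Stromal Lif was at 4.28 and 7.77 CPM before injury, then 24.9 and 17.4 (day 3), 7.06 (day 5) and 0.589 (day 7). Both day 3 values lay above the other 4, and the difference did not pass the test (log2 fold change 1.49 ± 0.71 SE, adjusted p = 0.271). Immune nuclei held 1 Lif UMI in 5882499. Osteoclast-like nuclei, 76 in all, held 6 Lif UMIs (19.9 CPM), 1 in uninjured replicate 2, 3 at day 5 and 2 at day 7. Il11 was the sparsest member, with 42 UMIs in all, 24 of them stromal, and between 0.821 and 4.52 CPM in the stromal nuclei of each library.

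**Figure D1:**
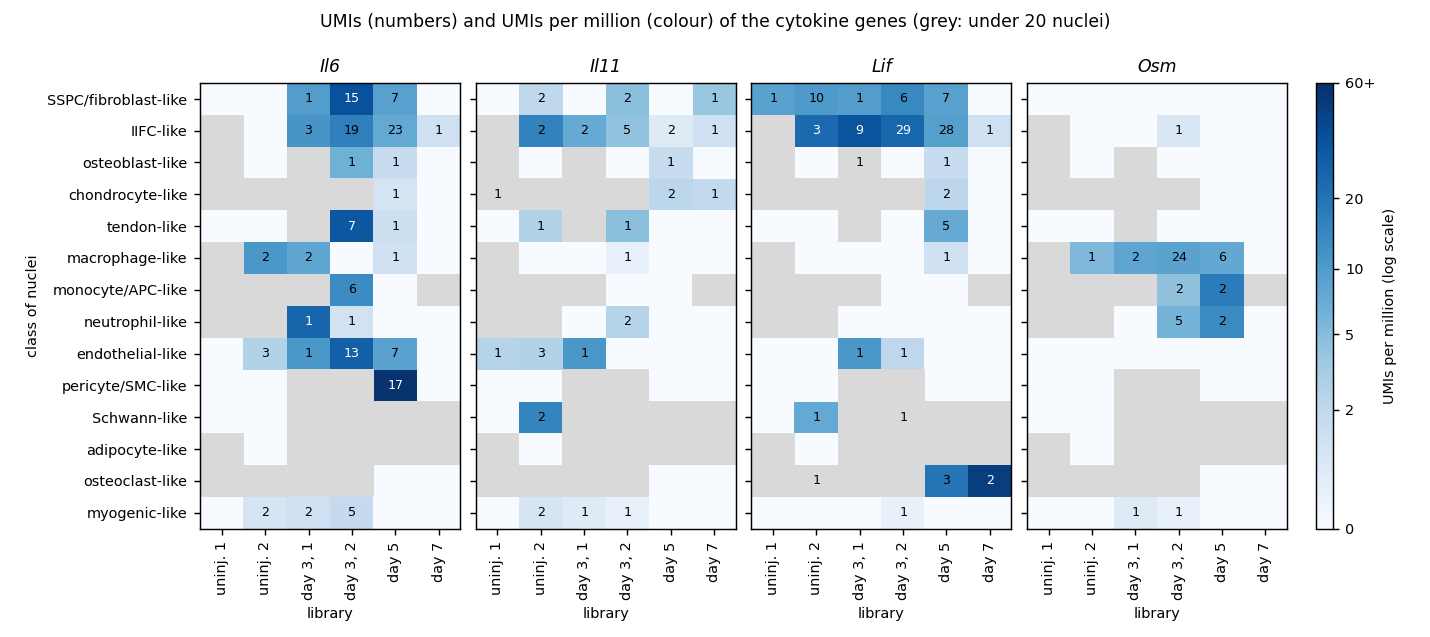
Counts of the 4 cytokine genes by class of nuclei (rows) and library (columns), with UMIs printed and CPM as colour on a log scale; grey marks class and library pairs with under 20 nuclei. Osm sits in the 3 immune rows but for 3 UMIs, Il6 is found mainly in the IIFC-like, SSPC/fibroblast-like and endothelial-like rows at days 3 and 5 and in the pericyte/SMC-like row at day 5, and Lif follows the IIFC-like and SSPC/fibroblast-like rows.

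Receptor genes divided the classes differently from the cytokine genes. The order of each receptor gene over 14 named classes was taken from the summed CPM, with the range over libraries holding at least 20 nuclei of the class. Neighbours in an order had overlapping ranges for every member, except a few pairs that involve the single adipocyte-like library or the Osmr step from chondrocyte- to osteoblast-like nuclei. A further exception was the Socs3 pair of osteoclast-like (0 to 13.1 CPM) and monocyte/APC-like nuclei (25.8 to 37.5 CPM), whose ranges lay in the reverse order. The orders are therefore read at their ends.

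Il6ra, the chain that gives a cell its own response to IL-6, was highest in neutrophil-like (440 CPM), monocyte/APC-like (356) and macrophage-like nuclei (308). Over libraries, the neutrophil-like median was 359 (34.6 to 491.5), below the monocyte/APC-like median of 383. Il6ra was lowest in tendon-like (15.5) and osteoblast-like nuclei (13.4). Osmr had the immune classes near the bottom, with endothelial-like (241), SSPC/fibroblast-like (229), IIFC-like (181) and pericyte/SMC-like nuclei (178) at the top and macrophage-like nuclei (8.96) at the bottom. Il6st was highest in endothelial-like (770) and SSPC/fibroblast-like nuclei (488) and lowest in chondrocyte-like nuclei (88.7). Lifr was highest in osteoblast-like (812), endothelial-like (391) and pericyte/SMC-like nuclei (293). Over libraries, the endothelial-like median was 179 (59.3 to 839) and the pericyte/SMC-like median 271 (18.9 to 523), and in uninjured replicate 2 the endothelial-like level (606) was above the osteoblast-like (541). Lifr was lowest in osteoclast-like (23.2) and IIFC-like nuclei (52.3). Socs3 was at 47.4 CPM in neutrophil-like nuclei on 54 UMIs and at 4.40 in pericyte/SMC-like nuclei. The osteoclast-like level of 43.1 came from 13 UMIs, of which 11 were from 16 nuclei of day 3 replicate 2, and the libraries with at least 20 such nuclei stood at 0 and 13.1.

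Lifr in osteoblast-like nuclei was high in every library, at 541 CPM in uninjured replicate 2, 763 in day 3 replicate 2, 816 at day 5 and 431 at day 7. The remaining pair had 7 and 6 such nuclei and stood at 8696 CPM in uninjured replicate 1 and 1640 in day 3 replicate 1, with up to 38 and 26 UMIs from a single nucleus.

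**Figure D2:**
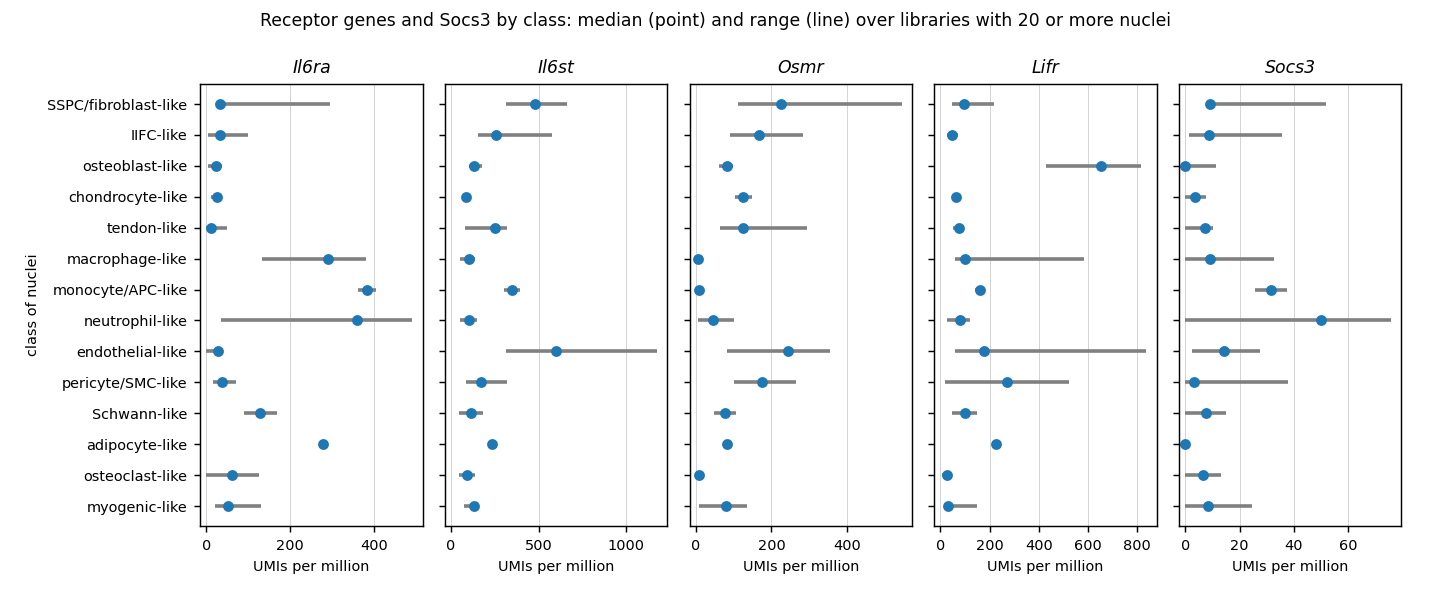
Levels of the 4 receptor genes and Socs3 in CPM (x axis, linear, each gene on its own scale) by class of nuclei (y axis), with the median as a point and the range as a line over libraries with 20 or more nuclei. Il6ra is highest in the 3 immune classes, where Osmr is low, and Lifr stands out in osteoblast-like nuclei.

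Immune and stromal nuclei of the same library were then tested against each other, which asks where the receptors sit. Of 9 members, 4 passed the filter on low counts and 3 were called, against 41.0% of 7900 tested genes called in either direction, so the count itself sets the members little apart. Il6ra was higher in immune nuclei (log2 fold change 2.64 ± 0.40 SE, adjusted p = 5.00e-05), at 102 to 361 CPM in immune and 15.6 to 150 CPM in stromal nuclei over the 6 libraries. In the uninjured libraries it was at 300 and 326 CPM against 150 and 98.6, and at day 3 at 236 and 361 against 29.4 and 44.1. Osmr was lower (-3.98 ± 0.37, adjusted p = 4.53e-07), at 0 to 36.1 CPM in immune and 101 to 297 CPM in stromal nuclei over the 6 libraries. Il6st was lower as well (-1.54 ± 0.24, adjusted p = 5.33e-05), and for Lifr the difference was -0.22 ± 0.38 (adjusted p = 0.707). The 3 calls held under each alternative that was run, including each library left out. The median of the 4 tested members was -0.88, against -0.06 over all tested genes. Without the filter on low counts, Osm was called higher (log2 fold change 5.28 ± 0.95, adjusted p = 3.49e-07), and Lif (-5.50 ± 0.84, adjusted p = 9.81e-10) and Il6 (-1.73 ± 0.63, adjusted p = 0.0299) were called lower in immune nuclei.

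Endothelial-like against stromal nuclei gave 1 call among 4 tested members, where 30.1% of 7588 tested genes were called. Il6st, at 311 to 1179 CPM in endothelial-like and 149 to 524 CPM in stromal nuclei, was higher (log2 fold change 0.88 ± 0.24 SE, adjusted p = 0.0182). The adjusted p was 0.0607 without uninjured replicate 1, 0.0546 without uninjured replicate 2 and 0.0625 without the day 7 library. Differences for Il6ra (-1.07 ± 0.39, adjusted p = 0.0635), Osmr (0.28 ± 0.37) and Lifr (0.47 ± 0.38) were not called.

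Day 3 was compared with uninjured tissue within stromal nuclei, where Osmr rose and Il6ra fell. Of the 9 members, 5 were tested and 2 were called, where 8.29% of 9937 tested genes were called, and Il6, Il11, Osm and Socs3 were removed by the filter. The median log2 fold change of the 5 tested members was 0.44, against 0.02 over all tested genes.

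Stromal Osmr, a receptor chain for oncostatin M that also serves IL-31, stood at 103 and 101 CPM before injury, then 278 and 297 (day 3), 165 (day 5) and 117 (day 7). The 2 uninjured libraries were the lowest of the 6 and the 2 day 3 libraries the highest. The day 3 difference was 1.45 ± 0.33 on the log2 scale (adjusted p = 0.0288). It was 1.47 (adjusted p = 0.0605) within the Cell Ranger 7.1.0 libraries, that is without uninjured replicate 1, 1.32 (adjusted p = 0.0637) without day 3 replicate 1, and 1.23 (adjusted p = 0.0501) with nuclei classed by their own marker UMIs.

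Stromal Il6ra was at 150 and 98.6 CPM before injury, then 29.4 and 44.1 (day 3), 15.6 (day 5) and 18.9 (day 7). Every fracture library was below both uninjured libraries. The day 3 difference was -1.76 ± 0.41 (adjusted p = 0.0321). Without uninjured replicate 1 it was -1.47 (adjusted p = 0.105), and without an upper limit on genes per nucleus it was -1.59 (adjusted p = 0.0583).

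The makeup of the stromal nuclei differed between the groups: 55.6% and 49.3% of them were SSPC/fibroblast-like in the uninjured libraries and 20.4% and 24.5% at day 3, and 6.77% and 8.90% against 61.3% and 54.3% were IIFC-like. The 2 called genes were therefore also taken in SSPC/fibroblast-like nuclei alone, a fit added after the data were seen. Osmr stood there at 113 and 124 CPM in the uninjured libraries and 544 and 429 at day 3 (log2 fold change 1.99 ± 0.40 SE, adjusted p = 0.0202). Il6ra stood at 294 and 145 CPM and at 28.6 and 25.8 (-3.03 ± 0.58, adjusted p = 0.0182). Without integration, nuclei of the groups fell into different clusters: an SSPC/fibroblast-like cluster held 67 and 227 uninjured and 2 and 2 day 3 nuclei, and a cluster with IIFC and fibroblast markers held 0 and 2 uninjured and 105 and 190 day 3 nuclei. Different states of nuclei within the class and a change of level in the same nuclei cannot be told apart. Osmr was also at 92.0 and 64.3 CPM in uninjured and 275 and 293 CPM in day 3 tendon-like nuclei, of which day 3 replicate 1 held 15. Ntng1 and Nlgn1 were among the leading genes of that cluster, beside the tendon markers Thbs4 and Mkx. Without integration, Ntng1 led a separate cluster with the fibroblast marker Luzp2, of 50 and 43 uninjured and 2 and 4 day 3 nuclei. Tendon-like nuclei of the groups can therefore differ in type, and its part in the Osmr values was not tested.

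Stromal Il6st was at 295 and 337 CPM in the uninjured and 375 and 524 CPM in the day 3 libraries, higher in both, and was not called (log2 fold change 0.44 ± 0.32, adjusted p = 0.506). It stood at 253 CPM at day 5 and 149 at day 7. Stromal Lifr stood at 381 CPM in uninjured replicate 1, where 67 of its 89 UMIs came from 7 osteoblast-like nuclei, and at 119 in uninjured replicate 2, 158 and 148 (day 3), 128 (day 5) and 78.4 (day 7). The Lifr difference was -0.70 ± 0.52 (adjusted p = 0.513). It was 0.32 without uninjured replicate 1, -1.36 without uninjured replicate 2, where it was called (adjusted p = 0.0198), and 1.13 ± 0.47 (adjusted p = 0.242) in SSPC/fibroblast-like nuclei. Stromal Socs3 was at 8.56 and 5.98 CPM before injury, then 9.04 and 32.7 (day 3), 9.36 (day 5) and 1.77 (day 7), so that day 3 replicate 2 alone stood apart.

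Macrophage markers summed to 47.1 and 118 CPM in the uninjured and 260 and 479 CPM in the day 3 stromal nuclei, with all 8 markers found in both day 3 libraries, and neutrophil markers to 29.97 and 30.5 CPM against 22.6 and 173 CPM. Endothelial markers summed to 360 and 203 CPM in uninjured and 33.9 and 61.02 CPM in day 3 stromal nuclei. Their part in the stromal results was not tested.

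Endothelial-like nuclei differed from stromal nuclei in the receptor that moved. Lifr, which binds LIF and pairs with gp130, stood at 839 and 606 CPM before injury, then 238 and 120 (day 3), 89.0 (day 5) and 59.3 (day 7). Every fracture library was below both uninjured libraries. Lifr fell at day 3 (log2 fold change -2.22 ± 0.42 SE, adjusted p = 0.0312), the call among 4 tested members, where 3.26% of 6690 tested genes were called. The value was -1.96 (adjusted p = 0.000507) within the Cell Ranger 7.1.0 libraries. The adjusted p was 0.0716 without day 3 replicate 1, 0.371 without day 3 replicate 2, where day 3 is left with 39 nuclei, and 0.0548 with the 6% of nuclei of highest doublet score removed.

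In each of the 4 endothelial-like clusters the summed Lifr level was lower at day 3 than in uninjured tissue: 932 against 279 CPM in the largest by uninjured UMIs, led by Ptprb and Vwf, 434 against 78.0 in that led by Cyyr1 and Adgrl4, 388 against 59.7 in that led by Ptprb and Cyyr1, and 188 against 31.2 in that led by Mmrn1 and Reln. The last 2 rest on 4 and 1 Lifr UMIs at day 3. The shares of the clusters differed as well. The largest held 834885 of 1567314 endothelial-like UMIs in uninjured tissue and 186083 of 567312 at day 3. The cluster led by Cyyr1 and Adgrl4 held 324992 and 282135. Levels and tests over all endothelial-like nuclei therefore mix levels within clusters with the shares of clusters. Endothelial-like Il6st was at 883 and 1179 CPM before injury, then 595 and 606 (day 3), 319 (day 5) and 311 (day 7), with no overlap between uninjured and fracture libraries. In the largest cluster by uninjured UMIs Il6st was at 1568 CPM in uninjured and 1424 at day 3, and in the cluster led by Cyyr1 and Adgrl4 at 708 and 227. It was at 315 and 149 in the cluster led by Ptprb and Cyyr1, and at 688 and 125 in that led by Mmrn1 and Reln. Its day 3 difference was not called (-0.87 ± 0.27, adjusted p = 0.138), but it was without the filter on low counts (-1.001, adjusted p = 0.024). Osmr stood at 355 and 319 CPM before injury, then 325 and 166 (day 3), 132 (day 5) and 81.5 (day 7), and its uninjured and day 3 values overlapped (-0.63 ± 0.39, adjusted p = 0.466). The median of the 4 tested members was -0.77, against -0.01 over all tested genes.

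The change at day 3 was also set against that in stromal nuclei of the same libraries, by an interaction term added after the data were seen. Both Osmr (-2.12 ± 0.41, adjusted p = 0.00383) and Lifr (-1.74 ± 0.45, adjusted p = 0.0273) changed toward lower levels in endothelial-like relative to stromal nuclei, 2 of 5 tested members, where 3.87% of 8546 tested genes were called. Neither was called without day 3 replicate 2 (adjusted p = 0.0867 for Osmr and 0.288 for Lifr), and Lifr was not called without uninjured replicate 2 (adjusted p = 0.161).

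Lifr, summed over the libraries of a group, was also lower at day 3 in pericyte/SMC-like nuclei, where no test between libraries was run. It was at 523 and 455 CPM in their uninjured libraries (477 summed) and at 164 summed over day 3, on 14 UMIs from 4 and 9 nuclei. The ratio was 0.343, with an exact 95% interval of 0.185 to 0.588 for counting error alone. Pericyte markers summed to 181 and 106 CPM in uninjured and 10.8 and 25.3 CPM in day 3 endothelial-like nuclei. Macrophage markers summed to 134.5 and 174 CPM in uninjured and 346 and 244 CPM at day 3. Their part in the endothelial-like result was not tested.

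**Figure D3:**
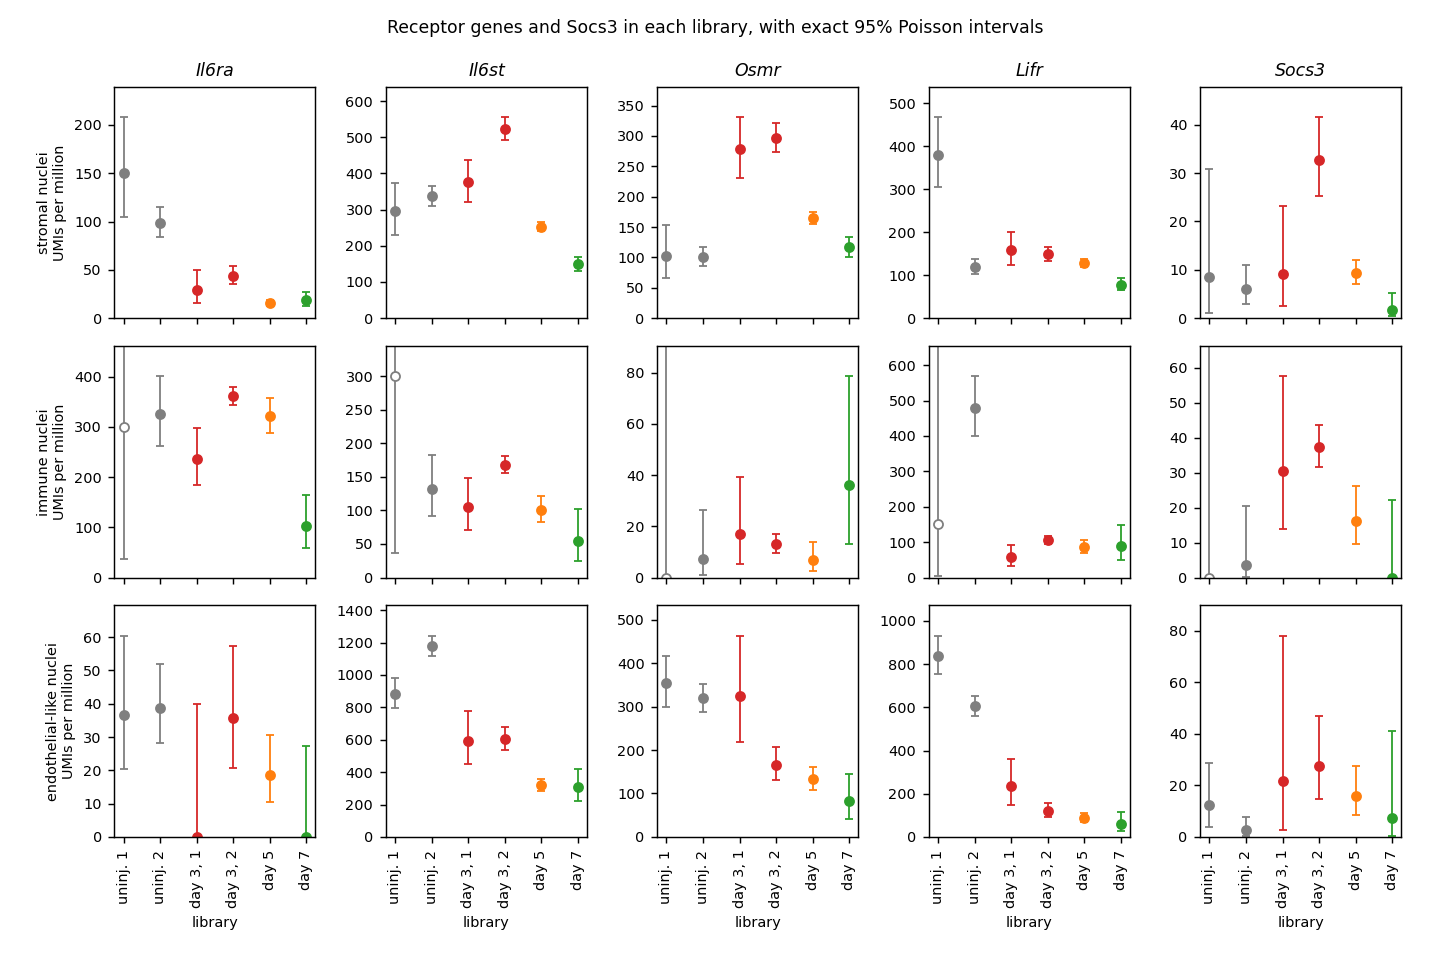
CPM (y axis, linear) of the receptor genes and Socs3 in each library (x axis) for stromal, immune and endothelial-like nuclei, with exact 95% Poisson intervals for counting error as bars (cut at the panel's top in places) and an open point where a library has under 20 nuclei. Osmr peaks at day 3 in stromal nuclei, and Lifr and Il6st are lower in all fracture libraries of endothelial-like nuclei.

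Within immune nuclei no member was called at day 3, among 3 tested, where 0.374% of 5083 tested genes were called by edgeR. By edgeR's unadjusted p, 192 of the 5083 genes were under 0.05, Lifr among them. That share is below the 0.05 expected with no change. DESeq2 called 5 genes and no member. Il6ra stood at 300 and 326 CPM before injury, then 236 and 361 (day 3), 321 (day 5) and 102 (day 7), with a difference of 0.16 ± 0.81 (adjusted p = 1.00). Immune Lifr stood at 150 and 479 CPM before injury, then on 1 and 131 UMIs, and at 57.4 and 106 (day 3), 86.4 (day 5) and 90.2 (day 7) (-2.08 ± 0.70, adjusted p = 0.26). In macrophage-like nuclei of libraries with at least 20 of them, Lifr was at 586 CPM in uninjured replicate 2 and at 60.3 to 112 in the 4 fracture libraries. Fibroblast markers summed to 1050 and 571 CPM in uninjured and 115 and 112 CPM in day 3 immune nuclei, and their part was not tested. Immune Socs3 was found as 0 and 1 UMI in uninjured and 9 and 153 at day 3 (30.4 and 37.3 CPM), and at 16.3 CPM at day 5 and 0 at day 7. The ratio of day 3 to uninjured was 10.3 with an exact 95% interval of 1.83 to 410. The filter removed Socs3 from the immune test.

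Over all nuclei but the myogenic-like ones, 7 members were tested and Lifr alone was called (log2 fold change -2.00 ± 0.40 SE, adjusted p = 0.038), where 8.90% of 12775 tested genes were called. Adjusted p was 0.151 without uninjured replicate 1, 0.0503 without day 3 replicate 1 and 0.123 without day 3 replicate 2. Socs3 (2.26 ± 0.60, adjusted p = 0.0709) and Il6 (3.11 ± 0.84, adjusted p = 0.0716) were higher in the fit and did not pass. These values mix levels within classes with the shares of classes: immune nuclei made up more of the nuclei at day 3.

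Myogenic-like nuclei (1594), left out of the comparison over all nuclei, were tested at day 3 in a fit added after the data were seen. Of the 168 and 254 uninjured nuclei of this class, 405 were among nuclei set aside before integration, which included 297 day 3 nuclei and 0 of days 5 and 7. The 367 nuclei of day 3 replicate 1 lay in other clusters, which held 2, 14 and 1 uninjured nuclei. Among the nuclei set aside, Osmr was at 5.83 CPM in uninjured and 99.5 at day 3, and Lifr at 135 and 29.5. The groups of this class therefore differ in clusters as well as in time, and these cannot be told apart. Osmr stood at 7.27 and 8.33 CPM before injury, then 135 and 90.6 (day 3), 109 (day 5) and 67.1 (day 7), so that every fracture library was above both uninjured libraries. Its day 3 difference was 3.77 ± 0.50 on the log2 scale (edgeR, adjusted p = 0.0308). Lifr stood at 92.7 and 147 CPM before injury, then 18.7 and 29.3 (day 3), 28.8 (day 5) and 30.5 (day 7), a difference of -2.45 ± 0.35 (adjusted p = 0.0327). Socs3 stood at 0 and 2.94 CPM in uninjured and 22.7 and 24.6 at day 3 (3.35 ± 0.76, adjusted p = 0.0737). Among 5 tested members 2 were called, where 2.39% of 9674 tested genes were. The adjusted p of Osmr was 0.0671 without uninjured replicate 1 and 0.111 without uninjured replicate 2, and that of Lifr was 0.112 without uninjured replicate 2.

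**Figure D4:**
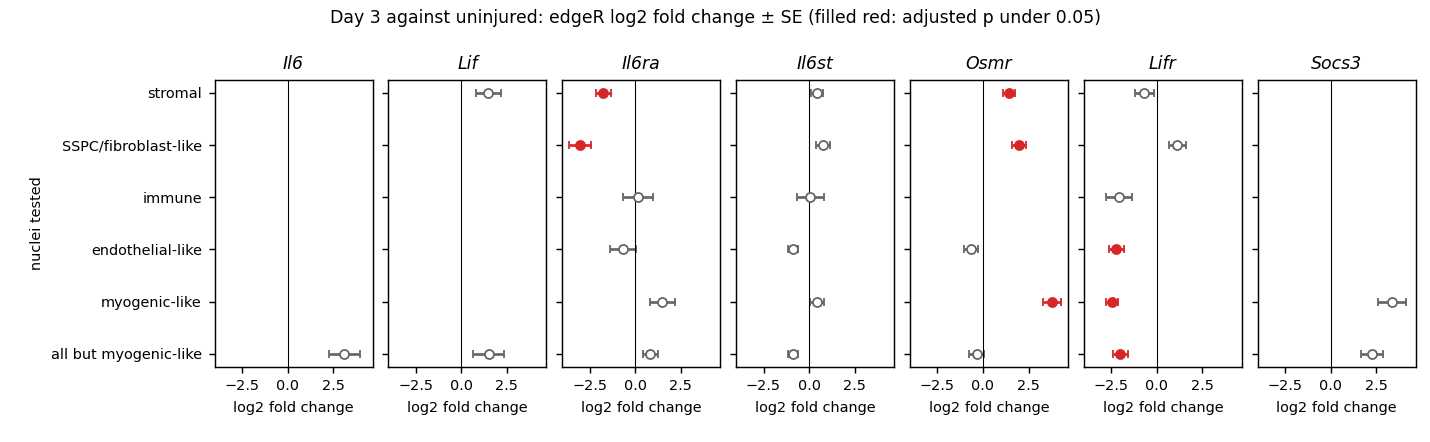
Log2 fold change of day 3 against uninjured libraries (x axis) with its SE as a bar, by class of nuclei (y axis), from edgeR; filled red points have an adjusted p under 0.05, and a blank means that the filter on low counts removed the gene. Osmr is positive in stromal, SSPC/fibroblast-like and myogenic-like nuclei and Lifr is negative in endothelial-like and myogenic-like nuclei.

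The rest of the pathway was taken as 38 genes in 5 lists. In stromal nuclei at day 3, 27 were tested, of which 4 were higher and 1 lower, where 8.29% of all tested genes were called, with a median log2 fold change of 0.53 against 0.02 over all tested genes. Of 3 tested receptor chains, 1 fell, Cntfr, the chain for ciliary neurotrophic factor (-3.50 ± 0.62, adjusted p = 0.0129). By edgeR and by DESeq2, 0 of 8 kinases, STATs and adaptors and 0 of 4 tested inhibitors and shedding enzymes were called, of which 3 and 1 had an unadjusted p under 0.05. Of 9 tested STAT3 target and acute-phase genes, 3 rose: Bcl3, an IkB-like regulator (2.61 ± 0.56, adjusted p = 0.0233), Junb, an AP-1 subunit (2.76 ± 0.43, adjusted p = 0.00842), and Timp1, an inhibitor of matrix metalloproteinases (2.53 ± 0.54, adjusted p = 0.0238). The median of the 9 was 1.74. Many signals act on these genes, and they are not markers of this family alone.

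In endothelial-like nuclei 0 of 17 tested genes of the lists were called at day 3 by edgeR or DESeq2 (3.26% of all tested genes by edgeR), with 2 at an unadjusted p under 0.05 and a median of 0.17 against -0.01 over all tested genes. In immune nuclei the count was 0 of 16 by both tools (0.374% of all tested genes by edgeR), with 1 at an unadjusted p under 0.05 and a median of 0.71 against 0.14. Between immune and stromal nuclei 7 of 25 tested genes were higher and 5 lower in immune nuclei, a share near the 41.0% over all tested genes. Ptpn6, a phosphatase of blood cells, was the furthest apart (3.89 ± 0.46, adjusted p = 5.25e-06), and Adam17, which sheds IL-6 receptor from the cell surface, was higher in immune nuclei (1.23 ± 0.25, adjusted p = 0.000877). Il11ra1, the IL-11 receptor chain, was lower in immune (-1.63 ± 0.34, adjusted p = 0.000924) and in endothelial-like (-1.57 ± 0.27, adjusted p = 0.00126) than in stromal nuclei.

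The genes whose pattern was most like that of a member were taken over 54 sums of a class in a library, from 14 classes, by Pearson's r of log2(CPM + 10). These sums share libraries, depth and classes, so the values are a description. Osmr was most like Wwtr1 (r = 0.81) and Parva (0.80), Il6ra like P2rx4 (0.79) and Trafd1 (0.78), Il6st like Fbln2 (0.73) and Heg1 (0.73), and Socs3 like Il17ra (0.71) and Junb (0.71). Lifr was nearest to Chn2 (0.64) and Lif to Src (0.58). Osm and Il11, with under 100 UMIs each, were not ranked.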

How the data were processed

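Single-nucleus libraries were sorted for Sytox-7AAD-labelled nuclei and sequenced by the study, and the authors deposited UMI counts per gene and barcode made with Cell Ranger 6.0.0 or 7.1.0 on mm10 (versions from the file headers and the submitters' notes). The members and gene lists were chosen with earlier results of these data known. Following the study's methods, a nucleus was kept if it had between 200 and 5000 genes, mitochondrial UMIs below 2% and ribosomal UMIs below 1.5%. Libraries were integrated and clustered in Seurat 5.3.0 (R 4.3.3, 20 components, resolution 1.3), and clusters were named from at least 3 markers, leaving 605 nuclei unnamed. Scrublet (through scanpy 1.11.5) marked 20 nuclei, under 0.5%, so it cannot be taken to have worked. Doublets were kept, and removing the 6% of nuclei with the highest scores was an added alternative. The ribosomal limit removed 2021 barcodes from day 3 replicate 2 and 2096 from day 7, and the upper gene limit 400 from day 3 replicate 2.

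UMIs were summed per library and class and tested with edgeR 4.0.16 (quasi-likelihood, TMM, filterByExpr, Benjamini-Hochberg adjustment over all tested genes, threshold 0.05), with the library as a block between classes. Days 5 and 7 had 1 library each and no test. The p-values measure spread between libraries of pooled mice. All 9 members are reported. Genes of the pathway lists are named where called, and like genes by rank of r. A called gene of these lists and the genes most like Il6 are not reported here. The tests were checked on simulated data, where most of the smaller changes put into the day 3 comparisons were not called. A difference that was not called at day 3 is therefore not shown to be absent. Alternatives were DESeq2 1.42.0, RLE size factors, no filter on low counts, other nucleus filters, resolution 0.8, no integration, classing by marker UMIs, and each library left out.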

Additional observations from a re-analysis of the deposited data

Results flagged for a closer look

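The change of Osmr at day 3 differed between endothelial-like and stromal nuclei of the same libraries, by an interaction term fitted with edgeR after the data were seen. The difference, endothelial-like minus stromal, was -2.12 ± 0.41 on the log2 scale (adjusted p = 0.00383), with Osmr higher in both day 3 libraries of stromal nuclei and at 325 and 166 CPM against 355 and 319 CPM in endothelial-like nuclei. Without day 3 replicate 2 it was -1.81 (adjusted p = 0.0867). For Lifr the difference was -1.74 ± 0.45 (adjusted p = 0.0273), -1.17 (adjusted p = 0.161) without uninjured replicate 2 and -1.50 (adjusted p = 0.288) without day 3 replicate 2. Of 8546 tested genes, 3.87% were called.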

How the results depend on the processing

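Of 421 recomputed log2 fold changes of members, 373 kept their direction and side of the threshold, 22 lost the call, 13 gained it and 13 changed sign; the cause was not tested. None of the sign changes was in a called value. With 11 immune nuclei in uninjured replicate 1, the immune comparison is limited by depth, and without uninjured replicate 2 its median over all genes was 8.42. No paired analysis was possible because the labels give no replicate numbers that tie libraries of different groups together, so no fit with a replicate block was made.

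The sign changed for stromal Lifr (0.32 without uninjured replicate 1, 1.13 in SSPC/fibroblast-like nuclei alone), immune Il6ra (-0.0398 without uninjured replicate 1), Il6st (-0.14 without day 3 replicate 2) and Lifr (0.64 without uninjured replicate 2), endothelial-like Il6ra (0.15 with no upper limit on genes), and Osmr over all nuclei (0.19 with myogenic-like nuclei, 0.11 without day 3 replicate 2). Between classes it changed for Lifr in immune against stromal (0.13 by marker UMIs) and for Osmr in endothelial-like against stromal nuclei (-0.0347 and -0.0504 without uninjured replicates 1 and 2). In the interaction it changed for Il6ra (-5.88 without day 3 replicate 2) and Socs3 (-0.58 without uninjured replicate 2).

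Members called in stromal nuclei at day 3 went from 2 to 1 with no upper limit on genes and by marker UMIs, and genes from 824 to 1396 with no filter on low counts and 253 in SSPC/fibroblast-like nuclei. Immune genes went from 19 to 5 by DESeq2, 32 with no filter and 9 by marker UMIs. Endothelial-like members went from 1 to 2 with no filter and 0 without the highest doublet scores, and genes from 218 to 704 with no filter and 471 with no upper limit. Over all nuclei members went from 1 to 2 by DESeq2 and with Scrublet calls removed, 3 with no filter and 0 with myogenic-like nuclei, and genes from 1137 to 2576 and 297 under the last 2. Immune against stromal members went from 3 to 6 and genes from 3238 to 5286 with no filter. Endothelial-like against stromal members went from 1 to 2 by DESeq2 and marker UMIs, 3 with no filter and 0 with no upper limit, and genes from 2284 to 3888 with no filter.

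With 1 library left out, members called ranged from 1 to 3 in stromal, 0 to 0 in immune and 0 to 1 in endothelial-like nuclei, 0 to 1 over all nuclei, 3 to 3 for immune and 0 to 2 for endothelial-like against stromal, 0 to 3 in myogenic-like nuclei and 0 to 3 in the interaction. Genes called ranged, in the same order, from 866 to 1063, 0 to 12, 0 to 349, 228 to 1241, 1895 to 4167, 1606 to 2541, 4 to 965 and 142 to 385. For members that changed sign, the values with 1 library left out ranged from -1.36 to 0.32 for stromal Lifr, -0.0398 to 1.49 for immune Il6ra, -0.14 to 0.37 for immune Il6st, -2.44 to 0.64 for immune Lifr, -0.86 to 0.11 for Osmr over all nuclei, -0.0504 to 0.47 for Osmr between endothelial-like and stromal nuclei, and -5.88 to 1.39 for Il6ra and -0.58 to 1.16 for Socs3 in the interaction. A group left with 1 library is assumed to vary like the other.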
